A study of Mus musculus with 12 samples.

Results

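The S100 proteins are a family of small calcium-binding proteins, and 8 of the genes that encode them were followed in sorted bone marrow macrophages and monocytes of the mouse: S100a1, S100a4, S100a6, S100a8, S100a9, S100a10, S100a11 and S100a13. Their Ensembl identifiers in the tables are ENSMUSG00000044080 (S100a1), ENSMUSG00000001020 (S100a4), ENSMUSG00000001025 (S100a6), ENSMUSG00000056054 (S100a8), ENSMUSG00000056071 (S100a9), ENSMUSG00000041959 (S100a10), ENSMUSG00000027907 (S100a11) and ENSMUSG00000042312 (S100a13). These 8 genes were matched by symbol among the 56953 genes listed in the deposited tables, and all 8 passed the filter on low counts in the 7 comparisons made. Each S100 protein carries a pair of EF-hand loops, most members bind calcium there, and the bound form exposes a surface that grips partner proteins such as annexins and myosin. S100a8 and S100a9 pair to form calprotectin, which binds zinc and manganese, is stored in the cytosol of neutrophils and monocytes, and acts on Toll-like receptor 4 when released. In myeloid cells the family is known mainly for its inflammatory members, while S100a4, S100a6, S100a10 and S100a11 work on the cytoskeleton and at membranes.

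The cells came from the bone marrow of 8-week-old female C57BL/6J mice of the Rank cre/+;R26.eYFP fl/+ genotype, in which Cre recombinase driven from the Rank locus switches on eYFP in macrophages that arise in the embryo. The cells were sorted into 4 populations, with 3 libraries each: eYFP+ macrophages (embryonic origin), eYFP- macrophages (derived from adult hematopoietic stem cells), Ly6Chi monocytes and Ly6Clo monocytes. The reporter marks origin only as far as Rank-driven recombination is complete, so an eYFP- cell is defined by the absence of a label. Per the study's methods, macrophages were sorted as F4/80+ CD206+ VCAM1+ cells and monocytes as CD11b+ F4/80lo cells, both after CD3+ (T cell) and B220+ (B cell) cells were left out and after a gate on low Gr1, the antigen by which neutrophils are usually set aside. The labels give no treatment, and the sources used here do not say whether libraries of one group came from separate mice, so the p-values measure the spread between these libraries, which may be technical.

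Total counts ran from 26390927 to 48618187 per library. The sorted identities were visible in the markers of each type: the summed level (in TPM, a level scaled to transcript length and to the library) of the 5 macrophage genes (Adgre1, Mrc1, Vcam1, Cd5l and Mertk) was 12877 to 19595 TPM in the 6 macrophage libraries and 256.6 to 699.9 TPM in the 6 monocyte libraries. A set of 3 libraries stood apart from their groups. In Ly6Clo replicate 2 and eYFP+ replicate 1, genes in the top quartile of transcript GC content were low relative to genes in the bottom quartile, with differences of -0.56 and -0.39 on the log2 scale (each library against the other 2 of its group, 18589 genes), against -0.06 to 0.35 in the other 10 libraries. In eYFP- replicate 2, the summed level of 11 neutrophil genes was 804.4 TPM, against 50.1 and 54.0 TPM in the other 2 libraries. Where leaving out these libraries ended or made a call or turned a direction, the value without them is given beside the result or among the limits that close the text.

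All 8 members lie on chromosome 3, where RefSeq lists 15 protein-coding S100 genes. Along the chromosome S100a1 stands next to S100a13, S100a4 and S100a6 are parted by S100a5, S100a8 adjoins S100a9, and S100a11 is followed by S100a10. S100a1 and S100a13 are read in opposite directions and the annotated extents of these genes overlap by 98 bases. Where counting ignored strand, reads in these bases cannot be given to one of the genes. Whether strand was used is not given in the sources used here. Promoter windows of 300 bases (250 before the start of transcription and 50 after it) were found for 7 members, with none for S100a10. A set of 4 is printed here from RefSeq (GRCm38.p6), 5′ to 3′ on the strand of the gene, because these genes stand for the pattern described below: S100a8 and S100a9, whose patterns over the libraries were the most alike, S100a4, whose level differed most between the cell types, and S100a1, which was higher in macrophages. Capitals mark matches, on either strand, to the C/EBP core TTGCNNAA, the PU.1 core GAGGAA, the AP-1 site TGANTCA or the TATA box TATAAA, motifs chosen because factors of these classes act in myeloid cells. The windows are S100a8 (chr3:90668821-90669120, plus strand), S100a9 (chr3:90695672-90695971, minus strand), S100a4 (chr3:90603520-90603819, plus strand) and S100a1 (chr3:90514281-90514580, minus strand).
S100a8: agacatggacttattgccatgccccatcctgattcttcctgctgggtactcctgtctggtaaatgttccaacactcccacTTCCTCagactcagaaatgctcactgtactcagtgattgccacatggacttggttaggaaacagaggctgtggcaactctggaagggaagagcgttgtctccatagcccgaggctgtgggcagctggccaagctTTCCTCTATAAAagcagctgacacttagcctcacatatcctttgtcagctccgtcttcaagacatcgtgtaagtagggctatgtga
S100a9: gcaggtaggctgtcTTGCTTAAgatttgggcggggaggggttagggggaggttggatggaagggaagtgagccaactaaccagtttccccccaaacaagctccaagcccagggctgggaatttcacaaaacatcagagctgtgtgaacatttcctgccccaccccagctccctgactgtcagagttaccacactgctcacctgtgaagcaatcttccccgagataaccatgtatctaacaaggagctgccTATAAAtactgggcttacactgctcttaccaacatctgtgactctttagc
S100a4: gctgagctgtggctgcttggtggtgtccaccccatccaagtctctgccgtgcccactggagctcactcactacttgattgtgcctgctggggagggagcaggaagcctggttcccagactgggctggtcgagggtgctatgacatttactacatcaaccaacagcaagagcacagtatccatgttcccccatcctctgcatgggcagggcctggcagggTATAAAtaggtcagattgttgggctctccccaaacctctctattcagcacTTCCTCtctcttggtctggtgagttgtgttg
S100a1: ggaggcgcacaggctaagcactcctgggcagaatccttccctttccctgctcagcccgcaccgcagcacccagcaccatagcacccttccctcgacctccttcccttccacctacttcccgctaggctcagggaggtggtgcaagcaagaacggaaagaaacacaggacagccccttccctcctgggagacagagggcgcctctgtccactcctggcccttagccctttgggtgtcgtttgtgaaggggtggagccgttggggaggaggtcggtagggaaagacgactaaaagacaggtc

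In the S100a8 window, PU.1 matches began at -170 and -36 relative to the start, and a TATA box ran from -30 to -25, directly after the second PU.1 match. The S100a9 window held a C/EBP match from -236 to -229. Its match to the TATA letters ran from 1 to 6, after the annotated start, unlike those of S100a8 and S100a4. Whether transcription of S100a9 begins at the annotated start in these cells was not tested. The S100a4 window held a TATA box from -31 to -26 and a PU.1 match from 20 to 25. The S100a11 window, not printed, held a PU.1 match from -153 to -148 and AP-1 matches starting at -136 and -38. No match to these letters was found in the windows of S100a1, S100a6 and S100a13. Among 32851 RefSeq windows of the same length, 28.3% held the PU.1 core, 13.6% the TATA box, 10.8% the C/EBP core and 7.81% the AP-1 site, so the matches are a description of these letters and not evidence of binding.

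The make-up of the S100 transcripts differed between the cell types. In Ly6Chi monocytes the 8 genes took 1.56% to 2.05% of all TPM, and in Ly6Clo monocytes 0.450% to 1.27%. In macrophages they took 0.0530% to 0.0866% in the eYFP+ and 0.0572% to 0.186% in the eYFP- libraries. S100a8 and S100a9 made up 68.2% to 87.9% of the S100 transcripts in the 6 monocyte libraries. S100a1 made up 58.3% to 60.3% in eYFP+ macrophages and 13.8% to 65.5% in eYFP- macrophages, where the lowest value belonged to replicate 2, in which S100a8 and S100a9 took 73.8%. In monocytes S100a1 was 0.388% to 2.94% of the S100 transcripts. Ranked among all genes by mean TPM, S100a8 was number 5 and S100a9 number 18 in Ly6Chi monocytes, and numbers 17 and 58 in Ly6Clo monocytes, whereas in eYFP+ macrophages the leading member was S100a1 at rank 366. In eYFP- macrophages the leading member by mean TPM was S100a8 at rank 416, ahead of S100a1 at rank 472, and its level there was carried by replicate 2, with 946.1 TPM against 35.1 and 82.5 TPM in the other 2 libraries.

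**Figure D1:**
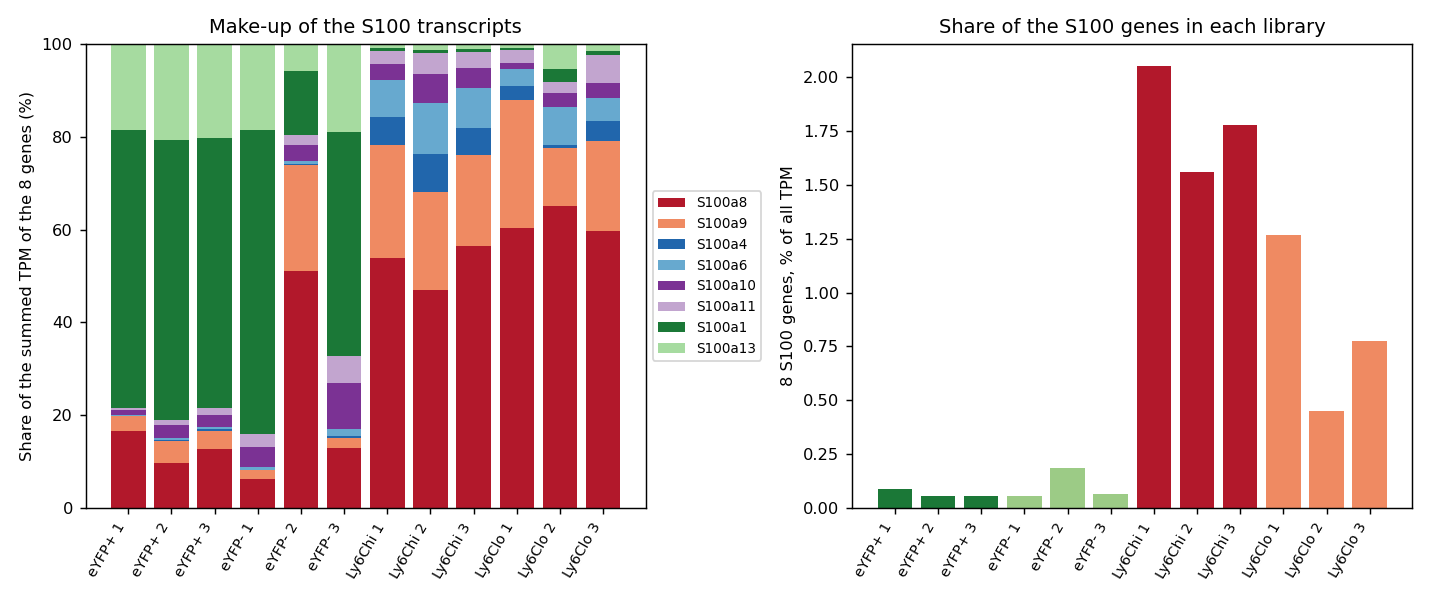
The left panel stacks the share of each S100 gene in the summed TPM of the 8 genes (%), 1 bar per library, and the right panel gives the 8 genes as % of all TPM. S100a1 and S100a13 fill most of the bar in 5 of the 6 macrophage libraries, S100a8 and S100a9 fill 68.2% to 87.9% in the monocyte libraries, and eYFP- replicate 2 resembles the monocytes on the left while its total on the right is 0.186%.

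The first comparison asks how the macrophages differ from the monocytes. Of the 8 members, 1 (S100a1) was higher and 7 were lower in macrophages, each with an adjusted p under 0.05 in DESeq2 and also in edgeR. Over all genes, 20.7% were called higher and 15.3% lower by DESeq2, and 19.8% and 15.8% by edgeR. The log2 fold changes (mean of both macrophage groups minus mean of both monocyte groups) ran from -8.40 to 1.83, with a median of -5.28 over the 8 genes against 0.08 over all genes tested. Normalized counts of the 6 macrophage and the 6 monocyte libraries did not overlap for S100a1, higher in macrophages, nor for 6 of the 7 lower members; over all genes tested, 10.9% were higher and 7.05% lower without overlap. S100a13 was the member whose libraries overlapped. Markers of other cells moved with this comparison too. Of the erythroid genes, 7 of 7 were called higher in macrophages by both tools and did not overlap, with sums of 8762 to 34924 TPM in the macrophage and 354.0 to 1400.2 TPM in the monocyte libraries. Of the 4 platelet genes (Pf4, Ppbp, Itga2b and Gp9), 3 were called higher in macrophages by both tools and 1, Pf4, did not overlap, with sums of 121.7 to 199.9 TPM in macrophages and 2.13 to 75.0 TPM in monocytes. Of the 3 eosinophil genes DESeq2 called Siglecf higher in macrophages, and of the 4 T and NK cell genes it called Cd3d higher and Klrd1 lower, while edgeR called Klrd1 alone among these 7. Cd79b, which encodes a subunit of the B cell receptor, measured 448.8 to 701.3 TPM in macrophages and 28.1 to 135.8 TPM in monocytes. The part of these genes' cells in the S100 differences was not tested. In bulk RNA of sorted cells, fewer cells that express a gene and less RNA per cell cannot be told apart.

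**Figure D2:**
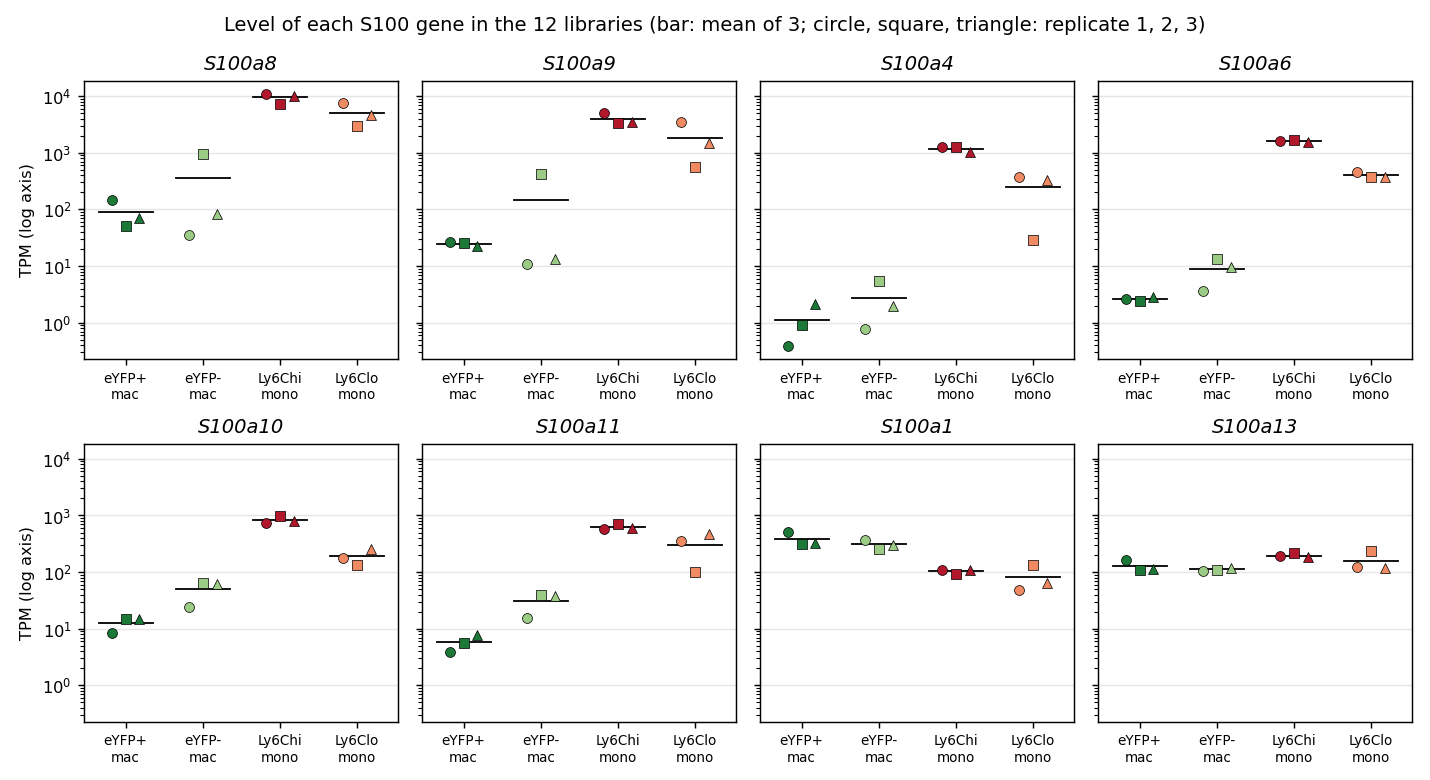
Level of each S100 gene in TPM (log axis) in the 12 libraries, with 1 symbol per library (circle, square and triangle for replicates 1, 2 and 3) and a bar at the mean of each group of 3. For 6 genes all monocyte libraries lie above all macrophage libraries, S100a1 shows the opposite order, and S100a13 stays between 106.4 and 239.5 TPM throughout.

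The genes of calprotectin were the most abundant of the 8 members in monocytes. S100a8 measured 11061, 7320 and 10029 TPM in Ly6Chi monocytes (replicates 1, 2 and 3) and 7653, 2927 and 4627 TPM in Ly6Clo monocytes. It measured 144.0, 50.9 and 71.4 TPM in eYFP+ macrophages and 35.1, 946.1 and 82.5 TPM in eYFP- macrophages. All monocyte libraries thus lay above all macrophage libraries, and the nearest approach was between eYFP- replicate 2 and Ly6Clo replicate 2. S100a8 was 42.6-fold lower in macrophages than in monocytes (log2 fold change -5.41 ± 0.60 SE, DESeq2 adjusted p = 2.99e-18, edgeR adjusted p = 0.000201). Without the 3 libraries that stood apart, a choice made after seeing the data, the log2 fold change was -7.12 ± 0.23.

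S100a9, the other subunit of calprotectin, measured 4980, 3315 and 3503 TPM in Ly6Chi monocytes and 3485, 564.5 and 1506 TPM in Ly6Clo monocytes. In macrophages it measured 26.9, 25.5 and 22.3 TPM in eYFP+ and 11.1, 423.0 and 13.1 TPM in eYFP- libraries. The groups of both cell types did not overlap, although eYFP- replicate 2 came close to Ly6Clo replicate 2. S100a9 was 48.7-fold lower in macrophages (log2 fold change -5.61 ± 0.68 SE, DESeq2 adjusted p = 3.91e-15, edgeR adjusted p = 0.000551), and the log2 fold change was -7.64 ± 0.23 without the 3 libraries. The ratio of S100a8 to S100a9 in TPM was 2.21 to 2.86 in Ly6Chi monocytes, 2.20 to 5.19 in Ly6Clo monocytes, 1.99 to 5.34 in eYFP+ and 2.24 to 6.30 in eYFP- macrophages. S100a8 was thus the more abundant of the pair in all 12 libraries, and the groups overlapped in the ratio.

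The level of S100a8 and S100a9 was set beside marker genes of neutrophils, the cells richest in calprotectin. The summed level of 11 neutrophil genes (Ltf, Camp, Ngp, Lcn2, Mmp8, Mmp9, Cd177, Ly6g, Cxcr2, Retnlg and Csf3r) was 5535 to 7878 TPM in Ly6Chi monocytes, 3343 to 6106 TPM in Ly6Clo monocytes, 61.9 to 64.5 TPM in eYFP+ macrophages and 50.1 to 804.4 TPM in eYFP- macrophages. Of these genes, 9 of 10 tested were called lower in macrophages than in monocytes by DESeq2 (15.3% of all genes) and 10 of 11 by edgeR (15.8% of all genes). eYFP- replicate 2 was the highest macrophage library for S100a8, S100a9 and the neutrophil sum. The genes of the list differed: in Ly6Chi monocytes Camp measured 3041, 1910 and 2715 TPM and Ngp 3087, 2081 and 2884 TPM, while the surface gene Ly6g measured 3.15, 2.31 and 4.17 TPM. The granule genes of neutrophil precursors (Elane, Mpo, Prtn3, Ctsg and Ms4a3) summed to 966 to 1555 TPM in Ly6Chi and 5.84 to 22.5 TPM in Ly6Clo monocytes. The part of other cells in the level of S100a8 and S100a9 was not tested.

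**Figure D3:**
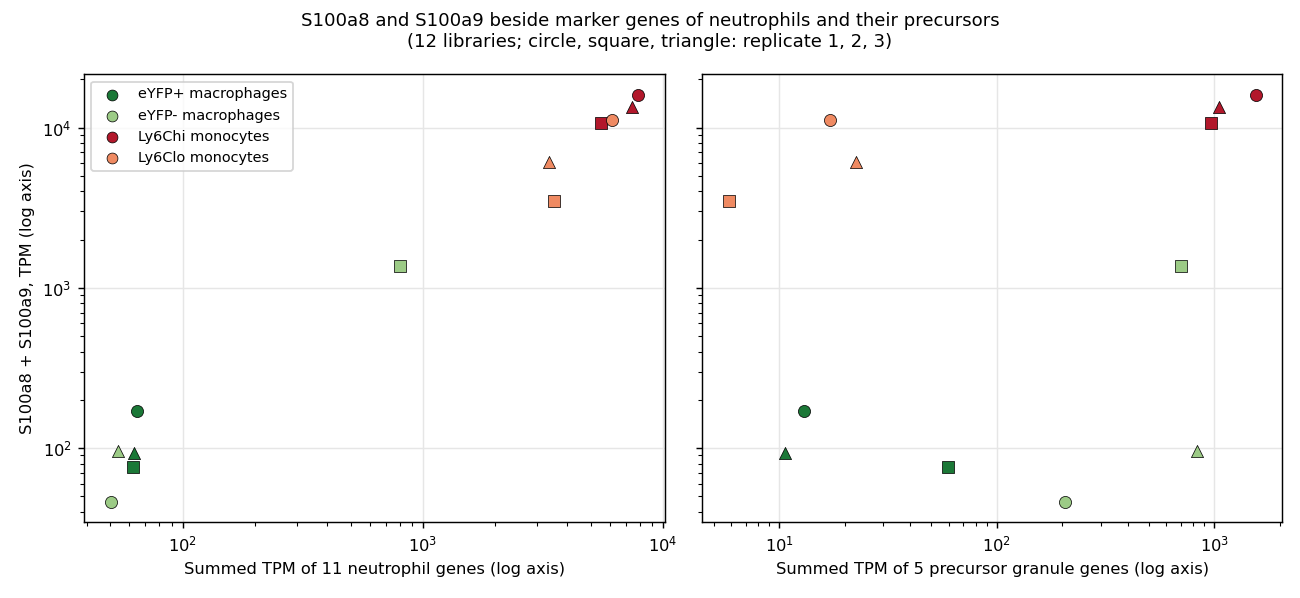
Summed TPM of S100a8 and S100a9 (vertical log axis) against the summed TPM of 11 neutrophil genes (left) and of 5 granule genes of neutrophil precursors (right, horizontal log axes), 1 symbol per library, coloured by group. On the left the libraries rise together, with eYFP- replicate 2 at 804.4 TPM of neutrophil genes between the macrophages and the monocytes, and on the right the Ly6Clo libraries lie far left, at 5.84 to 22.5 TPM, with high S100a8 and S100a9.

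S100a4 and S100a6 showed the widest gaps between the cell types. S100a4, which binds non-muscle myosin and is known for its part in cell motility, measured 1258, 1262 and 1031 TPM in Ly6Chi monocytes and 378.6, 29.5 and 332.4 TPM in Ly6Clo monocytes. In macrophages it was low, at 0.38, 0.91 and 2.13 TPM in eYFP+ and 0.79, 5.35 and 2.01 TPM in eYFP- libraries, which rest on 4 to 62 counts per library. Even Ly6Clo replicate 2, the lowest monocyte library, lay above every macrophage library. S100a4 was 338-fold lower in macrophages (log2 fold change -8.40 ± 0.56 SE, DESeq2 adjusted p = 2.08e-48, edgeR adjusted p = 5.99e-06).

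S100a6, or calcyclin, binds annexins and the ubiquitin-linked protein Cacybp. It measured 1628, 1713 and 1540 TPM in Ly6Chi monocytes, 453.2, 372.0 and 375.4 TPM in Ly6Clo monocytes, 2.67, 2.44 and 2.86 TPM in eYFP+ macrophages and 3.62, 13.1 and 9.52 TPM in eYFP- macrophages. The 4 groups did not overlap, and S100a6 varied little among the monocyte libraries of a group, with a coefficient of variation of 5.31% in Ly6Chi and 11.5% in Ly6Clo monocytes. It was 182-fold lower in macrophages than in monocytes (log2 fold change -7.51 ± 0.27 SE, DESeq2 adjusted p = 1.25e-172, edgeR adjusted p = 2.89e-08).

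S100a10 and S100a11 stand for the annexin-binding members. S100a10, which has lost calcium binding and holds annexin A2 at the membrane, measured 734.3, 968.9 and 784.4 TPM in Ly6Chi monocytes and 175.8, 133.8 and 258.2 TPM in Ly6Clo monocytes. In macrophages it measured 8.26, 14.7 and 14.9 TPM in eYFP+ and 24.6, 63.2 and 63.0 TPM in eYFP- libraries, so that the groups followed one another without overlap. It was 17.2-fold lower in macrophages (log2 fold change -4.10 ± 0.28 SE, DESeq2 adjusted p = 1.19e-46, edgeR adjusted p = 7.35e-07). S100a11, a partner of annexin A1, measured 569.5, 713.2 and 608.7 TPM in Ly6Chi and 350.3, 101.6 and 466.7 TPM in Ly6Clo monocytes. Its levels in macrophages were 3.91, 5.60 and 7.82 TPM in eYFP+ and 15.7, 40.0 and 38.1 TPM in eYFP- libraries. It was 35.5-fold lower in macrophages (log2 fold change -5.15 ± 0.36 SE, DESeq2 adjusted p = 3.65e-44, edgeR adjusted p = 1.99e-06), again with no overlap between groups of the cell types.

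S100a1 and S100a13, the neighbours at one end of the cluster, did not follow the other members. S100a1, best known from heart muscle, where it binds the proteins that move calcium in and out of the reticulum, measured 518.9, 319.9 and 329.7 TPM in eYFP+ macrophages and 374.7, 256.5 and 305.6 TPM in eYFP- macrophages. In monocytes it measured 106.9, 93.3 and 109.1 TPM in Ly6Chi and 49.2, 132.5 and 64.4 TPM in Ly6Clo libraries. Each macrophage library lay above each monocyte library, with a 3.56-fold higher level in macrophages (log2 fold change 1.83 ± 0.32 SE, DESeq2 adjusted p = 8.25e-08, edgeR adjusted p = 0.000376). S100a13, which takes part in the export of Fgf1 from the cell, measured 160.9, 110.2 and 114.5 TPM in eYFP+ macrophages, 106.4, 107.7 and 120.3 TPM in eYFP- macrophages, 190.8, 214.0 and 184.5 TPM in Ly6Chi monocytes and 121.4, 239.5 and 118.7 TPM in Ly6Clo monocytes. The cell types overlapped, and the call of lower S100a13 in macrophages was narrow (log2 fold change -0.66 ± 0.27 SE, DESeq2 adjusted p = 0.0362, edgeR adjusted p = 0.0329), being lost when any of 8 single libraries was left out, with adjusted p of 0.0627 to 0.115. Without the 3 libraries that stood apart the value for S100a13 was -0.57 ± 0.11 (SE) on the log2 scale, with an adjusted p of 2.95e-06 in DESeq2. Within Ly6Clo monocytes both S100a1 and S100a13 were highest in replicate 2, by log2 ratios of 1.35 and 1.11 to the other 2 libraries, while S100a4, S100a9 and S100a11 were lowest there, by -3.47, -1.90 and -1.88.

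The second comparison, between macrophages of embryonic and of adult origin, is the one the mouse model was built for. By DESeq2, 3 of the 8 members were called lower in eYFP+ than in eYFP- macrophages (S100a6, S100a10 and S100a11) and none higher, where 1.92% of all genes were called lower. By edgeR none of the 8 passed at an adjusted p under 0.05, with 3 at an unadjusted p under 0.05, where 0.328% of all genes were called lower. The same 3 genes were those whose normalized counts did not overlap between the groups, and 8.60% of all genes were lower without overlap. The median log2 fold change was -1.72 over the 8 members and 0.05 over all genes tested, but it rested on 1 library, being -0.09 without eYFP- replicate 2 and -0.17 without the 3 libraries that stood apart.

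S100a10 was 3.87-fold lower in eYFP+ macrophages, where normalized counts of 122.5, 190.7 and 185.0 stood against 353.3, 749.0 and 828.5 in eYFP- macrophages (log2 fold change -1.95 ± 0.40 SE, DESeq2 adjusted p = 0.000208, edgeR adjusted p = 0.0510). S100a11 was 5.25-fold lower, with 43.2, 54.4 and 72.5 against 168.0, 353.3 and 374.1 normalized counts (log2 fold change -2.39 ± 0.52 SE, DESeq2 adjusted p = 0.000634, edgeR adjusted p = 0.0809). S100a6 was 3.12-fold lower, with 45.3, 36.2 and 40.7 against 59.3, 177.8 and 143.1 normalized counts (log2 fold change -1.64 ± 0.39 SE, DESeq2 adjusted p = 0.00261, edgeR adjusted p = 0.0698). In each of the 3 genes eYFP- replicate 1 lay nearest to the eYFP+ libraries. Without the 3 libraries that stood apart, the log2 fold changes were -1.67 ± 0.35, -2.10 ± 0.35 and -1.41 ± 0.34 for S100a10, S100a11 and S100a6, and the adjusted p in DESeq2 were 7.69e-05, 1.62e-07 and 0.000727. The call of S100a6 was lost without eYFP- replicate 3 (adjusted p = 0.0566) and in a fit of only the 6 macrophage libraries (adjusted p = 0.0671).

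The other 5 members did not pass in this comparison. The fitted log2 value was -1.80 ± 0.84 for S100a8 (SE; adjusted p in DESeq2 0.467) and -2.40 ± 0.96 for S100a9 (0.274), and these signs rested on eYFP- replicate 2: without it the log2 fold changes were 0.63 ± 0.59 for S100a8 and 1.02 ± 0.60 for S100a9. S100a4, at 4 to 62 counts per library, stood at -1.19 ± 0.82 (SE) on the log2 scale, adjusted p = 0.854 in DESeq2, which turned to 0.03 ± 0.42 without the 3 libraries. For S100a1 the log2 fold change was 0.36 ± 0.45 (SE) and for S100a13 0.26 ± 0.37 (SE), with DESeq2 adjusted p of 1 for both, and they were -0.0033 and -0.031 without eYFP+ replicate 1. No difference between the macrophage groups was thus detectable for the calprotectin genes, S100a4, S100a1 or S100a13 with 3 libraries each.

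Markers of other cells moved along with this comparison. The 5 granule genes of neutrophil precursors summed to 10.6 to 59.4 TPM in eYFP+ and 205.6 to 827.9 TPM in eYFP- macrophages; all 5 were lower in eYFP+ macrophages without overlap, 3 passed in DESeq2 and 1 in edgeR. Over all genes the shares in this direction were 8.60% without overlap, 1.92% called by DESeq2 and 0.328% called by edgeR, which also hold for the lists that follow. The 6 monocyte genes (Ly6c2, Ccr2, Itgam, Nr4a1, Cx3cr1 and Spn) summed to 47.7 to 70.8 TPM in eYFP+ and 49.2 to 115.4 TPM in eYFP- macrophages, which overlapped, but 2 of the 4 tested by DESeq2, Ccr2 and Spn, were called lower in eYFP+ macrophages and did not overlap (adjusted p = 0.00265 and 1.35e-05), with none called by edgeR, where 3 had an unadjusted p under 0.05. The 7 erythroid genes summed to 8762 to 14341 TPM in eYFP+ and 22060 to 34924 TPM in eYFP- macrophages, and 5 of them were lower in eYFP+ macrophages without overlap; 1, Klf1, passed in DESeq2 and none in edgeR (6 at an unadjusted p under 0.05 in each). The 4 T and NK cell genes summed to 5.08 to 10.1 TPM in eYFP+ and 42.2 to 84.5 TPM in eYFP- macrophages, and 2 of them, Nkg7 and Klrd1, were lower in eYFP+ macrophages without overlap and passed in DESeq2, with Nkg7 alone passing in edgeR. That sum was carried by Nkg7, with means of 5.50 TPM in eYFP+ and 57.7 TPM in eYFP- macrophages, and Klrd1, with 1.10 and 6.92 TPM, while the T cell genes Cd3d and Cd3e overlapped and averaged at most 0.635 TPM in either group. The 3 eosinophil genes summed to 8.85 to 11.8 TPM in eYFP+ and 82.8 to 982.1 TPM in eYFP- macrophages, and all 3 were lower in eYFP+ macrophages without overlap, although none passed in DESeq2 or edgeR (2 at an unadjusted p under 0.05 in each). The upper value of that sum was eYFP- replicate 3, against 109.6 and 82.8 TPM in replicates 1 and 2. It is the library without which the call of S100a6 was lost. The sums of the 4 platelet genes overlapped, at 121.7 to 199.9 TPM in eYFP+ and 135.8 to 183.9 TPM in eYFP- macrophages, but Itga2b and Gp9 were lower in eYFP+ macrophages without overlap, and Itga2b, with means of 0.774 and 15.8 TPM, passed in DESeq2 and not in edgeR. Of the 11 neutrophil genes, with the sums given above, Camp, Ngp and Lcn2 were called lower in eYFP+ macrophages by DESeq2 out of 10 tested and none by edgeR (5 at an unadjusted p under 0.05), and each of the 11 overlapped. In eYFP- macrophages Camp ran from 9.37 to 263.6 TPM, Ngp from 6.81 to 312.7 TPM and Lcn2 from 0.858 to 74.8 TPM, each highest in replicate 2. The neutrophil sums of eYFP- replicates 1 and 3, 50.1 and 54.0 TPM, lay below those of the eYFP+ libraries, 61.9 to 64.5 TPM. The 5 macrophage genes summed to 15632 to 19595 TPM in eYFP+ and 12877 to 14084 TPM in eYFP- macrophages, a gap without overlap, although none was called or had an unadjusted p under 0.05 in either tool. The part of these cells in the lower S100a6, S100a10 and S100a11 of eYFP+ macrophages was not tested.

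The third comparison was between the kinds of monocyte, of which the Ly6Chi cells are the younger, inflammatory form. DESeq2 called 3 of the 8 members higher in Ly6Chi monocytes (S100a4, S100a6 and S100a10) and none lower, where 3.74% of all genes were called higher, and edgeR called 2 of them (S100a6 and S100a10), where 1.81% of all genes were called higher. Normalized counts were higher without overlap for 6 members, the 3 called and S100a8, S100a9 and S100a11, against 16.3% of all genes. The median log2 fold change of the 8 members was 1.10, against 0.01 over all genes tested.

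S100a6 was 4.09-fold higher in Ly6Chi monocytes, with normalized counts of 26443, 27753 and 25044 against 6909, 6360 and 6120 (log2 fold change 2.03 ± 0.36 SE, DESeq2 adjusted p = 1.57e-06, edgeR adjusted p = 0.00433). S100a10 was 4.40-fold higher, with 10437, 13730 and 11157 against 2345, 2000.3 and 3682 normalized counts (log2 fold change 2.14 ± 0.39 SE, DESeq2 adjusted p = 3.80e-06, edgeR adjusted p = 0.00600). For both genes the spread within each group was small beside the difference. S100a4 was 4.93-fold higher, with 13003, 13000.1 and 10665 against 3671, 320.2 and 3447 normalized counts (log2 fold change 2.30 ± 0.77 SE, DESeq2 adjusted p = 0.0360, edgeR adjusted p = 0.135). Ly6Clo replicate 2 lay far below the other 2 libraries of its group for S100a4, and without it the log2 fold change was 1.78 ± 0.53 (SE), with a DESeq2 adjusted p of 0.0118. The call of S100a4 was lost without any single Ly6Chi library (adjusted p of 0.0963 to 0.129), with the replicate number as a block (0.0750) and with scaling by total counts (0.0521).

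The calprotectin genes did not pass between the monocyte groups: the log2 fold changes were 0.93 ± 0.84 (SE) for S100a8, adjusted p = 0.586 in DESeq2, and 1.13 ± 0.96 for S100a9, adjusted p = 0.554. Their gap was narrow in normalized counts, where the lowest Ly6Chi library of S100a8 had 73599 and the highest Ly6Clo library 72427, and in TPM the groups overlapped. For S100a11 the difference was 1.06 ± 0.50 on the log2 scale, with an adjusted p of 0.193 in DESeq2. It was 1.53 ± 0.53 (SE) without Ly6Clo replicate 3, which passed (adjusted p in DESeq2 0.0404), and 0.66 ± 0.37 without Ly6Clo replicate 2 (0.324). S100a1 (log2 fold change 0.31 ± 0.45 SE) and S100a13 (0.28 ± 0.37 SE) overlapped, with DESeq2 adjusted p of 0.764 and 0.733. Without the 3 libraries that stood apart, both passed as higher in Ly6Chi monocytes, S100a1 by 0.90 ± 0.21 and S100a13 by 0.75 ± 0.15 on the log2 scale (adjusted p in DESeq2 0.000455 and 2.04e-05), so that 5 of the 8 members were called.

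Markers of other cells moved between the monocyte groups as well. The 5 granule genes of neutrophil precursors were called higher in Ly6Chi monocytes, 5 by DESeq2 and 4 by edgeR (3.74% and 1.81% of all genes), with the sums given above. The 5 macrophage genes summed to 256.6 to 304.9 TPM in Ly6Chi and 464.2 to 699.9 TPM in Ly6Clo monocytes. Of these, Adgre1, Mrc1, Vcam1 and Cd5l were lower in Ly6Chi monocytes without overlap (12.1% of all genes) and were called by DESeq2 (5.08% of all genes), and Vcam1 and Cd5l also by edgeR (2.51%). The 6 monocyte genes went in both directions, with 2 called higher and 1 lower in Ly6Chi monocytes by edgeR (1.81% and 2.51% of all genes). Itgam measured 78.0 to 102.6 TPM in Ly6Chi and 22.4 to 50.4 TPM in Ly6Clo monocytes. Ly6c2, which encodes an antigen of the Ly6C sort, averaged 6246 TPM in Ly6Chi and 55.2 TPM in Ly6Clo monocytes and was given no adjusted p by DESeq2. Ccr2 was called higher in Ly6Chi monocytes by both tools, with means of 673.7 and 178.6 TPM, and Nr4a1 lower by both, with 102.1 and 607.7 TPM. Spn, with means of 14.3 and 35.8 TPM, was lower in Ly6Chi monocytes without overlap but did not pass, and Cx3cr1 overlapped, with 200.7 and 229.5 TPM. Both tools also called the platelet gene Pf4, the NK cell gene Klrd1 and Cd79b lower and Nkg7 higher in Ly6Chi monocytes. DESeq2 alone called the neutrophil genes Mmp9 and Ly6g and the eosinophil genes Prg2 and Epx lower, and the eosinophil genes rested on Ly6Clo replicate 3, where Prg2 measured 519.0 TPM against 0.780 and 0 TPM in the other 2 libraries. The 11 neutrophil genes were split, with 4 higher and 3 lower in Ly6Chi monocytes without overlap (16.3% and 12.1% of all genes). Among the higher were Cd177, with means of 585.3 and 80.6 TPM, and Mmp8, with 169.6 and 34.4 TPM, although none passed as higher in either tool. None of the 7 erythroid genes was called or had an unadjusted p under 0.05 in either tool. The part of these cells in the S100 differences was not tested.

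**Figure D4:**
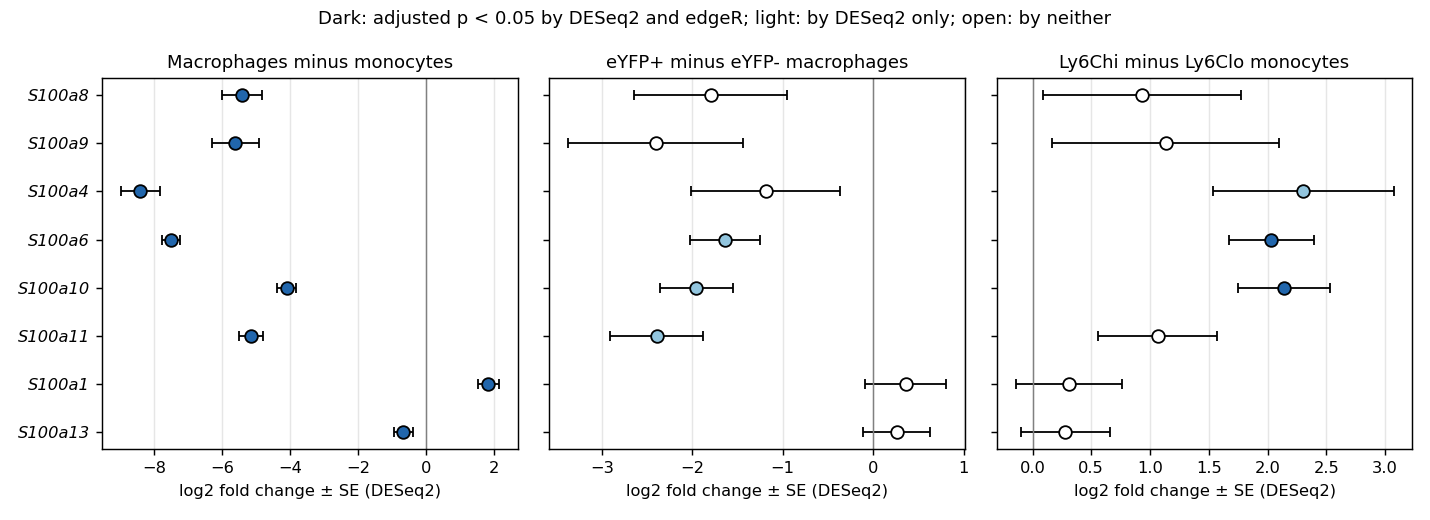
Log2 fold change of each S100 gene with its standard error (DESeq2) in the 3 comparisons, 1 panel each with its own horizontal scale. Dark points passed an adjusted p under 0.05 in DESeq2 and edgeR, light points in DESeq2 only and open points in neither: all 8 are dark on the left, 3 are light in the middle, and 2 are dark and 1 light on the right.

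Each macrophage group was also set against each monocyte group, which share the libraries of the comparisons above. In all 4 of these comparisons 7 of the 8 members were called by DESeq2, S100a1 as higher and 6 as lower in macrophages, where 25.5% (eYFP- macrophages against Ly6Chi monocytes), 26.8% (eYFP- against Ly6Clo), 28.7% (eYFP+ against Ly6Chi) and 26.1% (eYFP+ against Ly6Clo) of all genes were called in either direction. Between eYFP+ macrophages and Ly6Chi monocytes S100a4 and S100a6 differed by -10.15 ± 0.81 and -9.34 ± 0.38 (SE) on the log2 scale. S100a13 was called in none, with DESeq2 adjusted p of 0.0502 to 0.490, although edgeR called it lower in eYFP- macrophages than in Ly6Chi monocytes (adjusted p = 0.0439). Without the 3 libraries that stood apart it was called lower than in Ly6Chi monocytes in both macrophage groups, by -1.01 ± 0.15 (SE) on the log2 scale in eYFP+ and -0.87 ± 0.15 in eYFP- macrophages (adjusted p in DESeq2 3.89e-10 and 8.58e-08), and with the libraries of that comparison alone the adjusted p for eYFP- macrophages was 8.49e-05.

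In mean normalized count, 6 members (S100a4, S100a6, S100a8, S100a9, S100a10 and S100a11) followed one order: Ly6Chi monocytes, Ly6Clo monocytes, eYFP- macrophages, eYFP+ macrophages. For S100a6 and S100a10 all 3 steps of this order passed in DESeq2, although the step between the macrophage groups did not pass in edgeR. For S100a4 the step between the macrophage groups did not pass, for S100a11 the step between the monocyte groups did not, and for S100a8 and S100a9 neither did. The place of the macrophage groups in this order turned for S100a8 and S100a9 without eYFP- replicate 2 (0.63 and 1.02), and for S100a9 and S100a4 without the 3 libraries that stood apart (0.86 and 0.03 on the log2 scale). S100a1 had the order eYFP+ macrophages, eYFP- macrophages, Ly6Chi monocytes, Ly6Clo monocytes, of whose 3 steps that from eYFP- macrophages to Ly6Chi monocytes passed (DESeq2 adjusted p = 0.00524, edgeR adjusted p = 0.0193), a call lost without eYFP- replicate 1 (log2 fold change 1.28 ± 0.51 SE, DESeq2 adjusted p = 0.0574). S100a13 had no step that passed.

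Over the 12 libraries, likeness of pattern was measured as the root mean square difference of the centred variance-stabilised values (close to log2), so that a smaller value is a closer match. The closest pair of members was S100a8 and S100a9 at 0.50, followed by S100a10 and S100a11 at 0.58 and S100a4 and S100a6 at 0.90, while S100a1 and S100a4 were farthest apart at 4.58. S100a1 and S100a13, whose genes overlap, stood at 1.25, behind S100a6 and S100a8 at 1.05. Among 10976 expressed genes, the nearest to S100a6 were F10, which encodes coagulation factor X, at 0.25 and the chemokine receptor gene Ccr2 at 0.32. The genes nearest to S100a1 were Nucb2 (0.18) and Cd302 (0.21), and those nearest to S100a13 were Esd (0.16) and Psma4 (0.17). After their own partner, S100a8 was nearest to Camp (0.58) and S100a9 to Lcn2 (0.61), both neutrophil granule genes from the marker list. S100a10 was nearest to Tbc1d2 (0.48) and the vimentin gene Vim (0.50), and S100a11 to Pstpip1 (0.36) and Cnr2 (0.38). These values describe 12 libraries in 4 groups, all of which share the step between macrophages and monocytes.

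The other members of the family were at low levels. Of 9 further S100 genes on a list, 8 were in the table, S100a14 and S100z had no count in any library, and the summed level of the 8 was at most 3.40 TPM. S100a16 passed as higher in macrophages, at a mean of 35.1 against 4.41 normalized counts (log2 fold change 2.88 ± 0.89 SE, DESeq2 adjusted p = 0.00492, edgeR adjusted p = 0.0469), and S100g passed as lower in DESeq2 (adjusted p = 0.0222) at a mean of 0.47 against 5.92 normalized counts, too few for the edgeR filter.

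The receptors through which secreted S100 proteins are known to act were split between the cell types. Of 9 receptor genes, 5 were called higher and 2 lower in macrophages than in monocytes by both tools, against 20.7% and 15.3% of all genes in DESeq2 and 19.8% and 15.8% in edgeR. Tlr4, the signalling receptor for calprotectin, had a mean of 13289 against 1722 normalized counts (log2 fold change 2.91 ± 0.22 SE, DESeq2 adjusted p = 2.26e-37), and Mcam, an adhesion molecule that binds S100a8 and S100a9, 113.5 against 2.79 (log2 fold change 5.71 ± 0.65 SE, DESeq2 adjusted p = 3.11e-17). The others that rose were the Tlr4 co-receptor genes Ly96 and Cd14, and Bsg. The 2 that fell were Emb, which encodes the calprotectin receptor embigin, with 957.7 against 25003 normalized counts (log2 fold change -4.65 ± 0.21 SE, DESeq2 adjusted p = 7.80e-104), and Alcam, with 37.0 against 907.8 (log2 fold change -4.97 ± 0.43 SE, DESeq2 adjusted p = 4.45e-29). Ager, the receptor for advanced glycation end products, was low in all groups, at 0.77 to 3.02 TPM per library.

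Between the macrophage groups DESeq2 called Emb and Alcam lower in the eYFP+ cells, where it called 1.92% of all genes lower (adjusted p = 0.0168 and 0.0369) and edgeR neither (adjusted p = 0.124 and 0.383). Between the monocyte groups Emb was higher in Ly6Chi cells (log2 fold change 1.36 ± 0.30 SE, DESeq2 adjusted p = 0.000215, edgeR adjusted p = 0.0122). Cd36, a scavenger receptor that takes up the S100a8 and S100a9 complex with bound fatty acid, was lower there (log2 fold change -5.87 ± 0.41 SE, DESeq2 adjusted p = 6.95e-43), where 5.08% of all genes were called lower. Cd36 measured 7.98, 10.8 and 6.80 TPM in Ly6Chi and 301.1, 788.8 and 380.1 TPM in Ly6Clo monocytes, with no overlap.

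Of 10 intracellular partners of the S100 proteins, 1 was called higher and 4 lower in macrophages than in monocytes by both tools, where DESeq2 called 20.7% of all genes higher and 15.3% lower. Fgf1, the growth factor exported with S100a13, was higher, with a mean of 4425 against 28.04 normalized counts (log2 fold change 7.37 ± 0.69 SE, DESeq2 adjusted p = 8.71e-25), while S100a13 had the narrow call in the other direction described above. Anxa1, the annexin bound by S100a11, fell from 16546 to 744 normalized counts (log2 fold change -5.37 ± 0.31 SE, DESeq2 adjusted p = 2.98e-63), and Ahnak, a large scaffold held by S100a10 and annexin A2, fell from 8710 to 148.9 (log2 fold change -5.49 ± 0.37 SE, DESeq2 adjusted p = 2.53e-48). The other 2 that fell were Anxa2 and Myh9, the partners of S100a10 and S100a4. The ratio of Anxa2 to S100a10 in TPM, chosen after the values were seen, was 1.62 to 3.83 in the monocyte libraries, 3.08 to 9.40 in eYFP- and 11.6 to 25.1 in eYFP+ macrophages.

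Between the macrophage groups 1 of the 10 partners was called lower, Anxa1, by both tools (1.92% of all genes in DESeq2, 0.328% in edgeR). It measured 3.44, 4.77 and 2.39 TPM in eYFP+ and 29.99, 51.00 and 49.40 TPM in eYFP- macrophages (log2 fold change -3.56 ± 0.45 SE, DESeq2 adjusted p = 5.22e-12, edgeR adjusted p = 0.00590). The groups did not overlap, and the direction was that of S100a11. Between the monocyte groups 3 partners were higher in Ly6Chi cells by both tools (3.74% and 1.81% of all genes): Anxa2 (log2 fold change 1.51 ± 0.24 SE, DESeq2 adjusted p = 5.12e-08), Anxa6 (log2 fold change 1.40 ± 0.27 SE, DESeq2 adjusted p = 1.21e-05) and Ahnak, so that S100a10, Anxa2 and Ahnak were all called in the same direction.

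Calprotectin delivers arachidonic acid to the NADPH oxidase of phagocytes, and genes of this enzyme were lower in macrophages by both tools. Cybb, the catalytic subunit, had a mean of 17509 against 104426 normalized counts (log2 fold change -2.60 ± 0.16 SE, DESeq2 adjusted p = 9.13e-61) and Ncf4 1232 against 12225 (log2 fold change -3.31 ± 0.24 SE, DESeq2 adjusted p = 2.14e-41). Ncf1 and Rac2 also fell, and Cyba had a log2 fold change of 0.04 ± 0.27 (SE). Cybb, Cyba, Ncf1, Ncf4 and Rac2 did not pass between the macrophage groups (DESeq2 adjusted p of 0.274 to 1, edgeR 0.459 to 1) or between the monocyte groups (DESeq2 0.243 to 0.977, edgeR 0.311 to 0.965). A list of 6 transcription factor genes held Cebpa, Cebpb, Cebpd, Cebpe, Spi1 and Stat3, and none of the AP-1 class. Of these, 4 were called lower in macrophages by DESeq2 and 3 by edgeR, against 15.3% and 15.8% of all genes. Cebpe, a factor of granulocyte maturation, had 82.2 against 1033 normalized counts (log2 fold change -4.64 ± 0.62 SE, DESeq2 adjusted p = 1.81e-12) and Stat3 4150 against 17853 (log2 fold change -2.11 ± 0.31 SE, DESeq2 adjusted p = 1.73e-10). Spi1, which encodes PU.1, also fell, and Cebpb passed in DESeq2 only (adjusted p = 0.0170, edgeR adjusted p = 0.0516). Between the macrophage groups Cebpe was lower in eYFP+ cells in DESeq2 (log2 fold change -3.85 ± 0.90 SE, adjusted p = 0.00224) but not in edgeR (adjusted p = 0.170), and between the monocyte groups none of the 6 passed in either tool, with 1 at an unadjusted p under 0.05.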

How the data were processed

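RNA of sorted bone marrow cells was sequenced in 12 libraries, 3 in each of 4 groups taken from the labels. Per the study's methods, the authors demultiplexed with bcl2fastq 2.20.0.422, trimmed and corrected reads, removed ribosomal reads, aligned to GRCm39 with segemehl and counted unambiguous read pairs per Ensembl gene with featureCounts. The deposited count table holds these raw counts per gene, and the deposited TPM table holds the authors' length-scaled values. A further deposited table holds the authors' DESeq2 variance-stabilised values, on a scale close to log2, which were used for likeness of pattern. Symbols were matched for 52029 of 56953 genes (91.4%), and 14020 genes had no count.

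From the counts, 1 DESeq2 1.42.0 fit (R 4.3.3) over the 12 libraries with group as the factor gave Wald tests for 7 comparisons, with Benjamini-Hochberg adjustment over all genes at 0.05 and independent filtering. Normalized counts are counts divided by DESeq2 size factors. edgeR 4.0.16 (quasi-likelihood) and limma 3.58.1 on log2(TPM + 1) were alternatives, as were other scalings, filters, a replicate block and leaving out libraries. The 8 members are named whatever their values. From each list, values are given for at most the 2 higher and 2 lower genes with the lowest adjusted p under 0.05 and a mean of at least 50 normalized counts in the comparison, and for each member the 2 nearest genes are named. Other genes that complete a count of 5 or fewer, and Ager, Cyba, Cebpb, S100a16, S100g, Camp, Ngp, Lcn2, Cd177, Mmp8, Ly6g, Ccr2, Itgam, Spn, Nkg7, Klrd1, Cd3d, Cd3e, Cx3cr1, Ly6c2, Cd79b and Alcam between the macrophage groups, were named after their values were seen. Some results that these rules would name are not reported here. The members and gene lists were chosen with earlier results of these data known. Total counts of 26390927 to 48618187 limit the precision for genes with few counts, such as S100a4 in macrophages. Sequences came from RefSeq (GRCm38.p6), a build other than that of the counts.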

Additional observations from a re-analysis of the deposited data

How the results depend on the processing

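Across the alternatives run, 1091 fold changes of members were recomputed, and 1030 kept their direction and their side of the threshold, 39 calls were lost, 13 were gained and 9 changed sign, none of which had passed the threshold (0). Of 145 recomputed counts of called members, 139 were within 1.5 times of the reported count. The count between the macrophage groups, 3 in DESeq2, was 0 in edgeR, 0 in edgeR with the replicate block, 1 in limma on log2(TPM + 1), 1 with a pseudocount of 0.1 and 0 in limma with no filter on low values. The count between the monocyte groups, 3, was 5 without the 3 libraries that stood apart, an alternative chosen after seeing the data. Leaving out 1 library at a time gave 7 to 8 called members between macrophages and monocytes, 2 to 3 between the macrophage groups, 2 to 4 between the monocyte groups and 6 to 7 in the other comparisons. The sign changes between the macrophage groups concerned S100a1 (leave-one-out log2 fold changes from -0.0033 to 0.59, and -0.20 without the 3 libraries), S100a13 (-0.031 to 0.39, and -0.14), S100a8 (-2.46 to 0.63), S100a9 (-2.94 to 1.02, and 0.86) and S100a4 (0.034 without the 3 libraries). S100a13 between eYFP+ macrophages and Ly6Clo monocytes ran from -0.68 to 0.027. The cause of these changes was not tested. Replicate numbers were not taken to pair the libraries, since the sources used here do not say whether same-numbered libraries share a mouse. Deviations of same-numbered libraries from their group means correlated at 0.39, 0.21 and 0.071 in macrophages and 0.28, 0.068 and -0.026 in monocytes (2000 genes). Libraries with different numbers were not compared in this way, so these values cannot decide whether the numbers pair the libraries. With the number as a replicate block in DESeq2, the calls of lower S100a13 in macrophages (adjusted p = 0.0913) and higher S100a4 in Ly6Chi monocytes (adjusted p = 0.0750) were lost. S100a9 had no adjusted p in some of the fits without 1 library, where DESeq2 set it aside by Cook's distance. Depth limits S100a4 in macrophages, at 4 to 62 counts per library.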
